A study of Mus musculus with 8 samples.

Results

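Tumor-associated macrophages (TAMs) from mice given thiostrepton by paratumor S.C. injection were compared with TAMs from mice given DMSO, gene by gene. The comparison uses 4 of the 8 mice of the series, 2 S.C. and 2 DMSO, chosen by the treatment named in their labels. All were male C57BL/6 (B6) mice, 8 to 10 weeks old, that carried subcutaneous B16F10 tumors, a transplantable melanoma line of the same strain. Dosing was on days 6 and 12 after engraftment, at 20 mg/kg for the S.C. group. TAMs were sorted from each tumor on day 18 by the gate CD45+F4/80+CD11b+Gr-1−. Each mouse gave 1 library. The labels of the S.C. mice (called IS) name only an injection beside the tumor, and thiostrepton is named for them in the design of the series. The study used both injection routes for its vehicle too, but which one each of these DMSO mice had is not stated, so injection beside the tumor and thiostrepton itself cannot be told apart in this comparison. The other 4 mice of the series received thiostrepton by I.P. injection and appear below only where they bear on a value.

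Thiostrepton is a thiopeptide antibiotic that binds the bacterial ribosome and has also been described as an inhibitor of the transcription factor FOXM1 and of the proteasome. Macrophages that meet an inflammatory stimulus first transcribe immediate early genes, such as Fos, Egr1 and Nr4a1, and then targets of NF-κB, among them cytokines, chemokines and the inhibitors that end the NF-κB response. Macrophages resident in tissue carry another set of genes, for scavenger receptors such as Cd163, Mrc1 and Lyve1, which take up hemoglobin complexes, glycoproteins and hyaluronan.

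Between 14127506 and 16222188 counts were assigned to genes in each of the 4 mice. The S.C. mice had 10971 and 11428 genes with 8 or more counts, fewer than the 11705 and 12012 of the DMSO mice. The S.C. mice also resembled each other less. Across 11680 genes the log2 CPM (counts scaled to one common library size) of the pair correlated with a Pearson r of 0.80 in the S.C. group and 0.97 in the DMSO group, and the SD of the log2 difference within the pair was 1.79 against 0.63. Macrophage identity genes were present throughout. Summed over 14 macrophage markers, among them Csf1r, Itgam, Cd68 and the C1q genes, the S.C. mice were at 40570 and 43440 CPM and the DMSO mice at 28790 and 32580 CPM. Much of each sum was Lyz2, at 20979 and 24862 CPM in the S.C. mice and 15506 and 16478 CPM in the DMSO mice. Of the 14, 0 were DEGs in either direction, beside 5.06% of all genes tested. At this list size the count does not show that they were unchanged.

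A gene was called a DEG when it changed 2-fold or more and its unadjusted edgeR P was under 0.05, the criterion of the study, and "upregulated" or "downregulated" below means this call. Of 11680 genes tested, 268 (2.29%) were upregulated and 323 (2.77%) downregulated in S.C. mice. Either direction together made 591 (5.06%). When p was adjusted by Benjamini-Hochberg over all 11680, edgeR left 0 genes under 0.05, while 632 (5.41%) had an unadjusted P under 0.05. The smallest adjusted p was 0.131, for Nr4a1. Under edgeR's likelihood ratio test 179 genes, and under DESeq2 107, passed the adjusted threshold. An exact two-sided permutation test of any single gene in 2 mice against 2 cannot give a p below 0.333. By the account of the study each library is from a separate mouse, and the labels name no other unit. The p-values of the main fit of S.C. against DMSO mice thus rest on the spread between 4 mice. As TAMs were sequenced in bulk, fewer cells of a type and less RNA of a gene per cell cannot be told apart.

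The calls were next kept apart by whether a gene had 8 or more counts in all 4 mice, the upper set, or fewer in at least 1, the lower set. Among 10017 genes with 8 or more counts in all 4 mice, 215 (2.15%) were upregulated and 104 (1.04%) downregulated. Among the 1663 tested genes that fell below 8 counts in at least 1 mouse, 53 (3.19%) were upregulated and 219 (13.2%) downregulated. Both directions together, 3.18% of the upper set and 16.4% of the lower set were DEGs, and an unadjusted P under 0.05 was found for 3.59% and 16.4%. Both S.C. mice lay above both DMSO mice for 17.3% of the upper and 8.18% of the lower set, and below them for 16.3% and 30.8%. Next to the limit, 89 tested genes had a lowest count of 7, with 6 upregulated and 1 downregulated, and 68 had a lowest count of 8, with 2 and 1. The change itself helps to set this split, since a gene that fell far in the S.C. mice left the upper set, and a gene close to 0 in one group passed the filter only through the group in which it was high. Split by a mean of 8 counts instead, the upper part held 267 upregulated and 296 downregulated genes, so nothing is read from the excess of rises in the upper set. Of the 219 downregulated genes of the lower set, 203 were below 8 counts in both S.C. mice and 0 were below 8 counts in a DMSO mouse. All 53 upregulated genes of the lower set were below 8 counts in at least 1 DMSO mouse, 32 of them in both. With no scaling beyond library size, 149 genes of the upper set were upregulated and 199 downregulated, and over all genes 31.4% of the DEGs were upregulated in place of 45.3%. With 8 counts required in every mouse before the fit, 66.5% were upregulated. Library size scaling moved the median log2 fold change of all genes by -0.152. The upper set is described first.

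**Figure D1:**
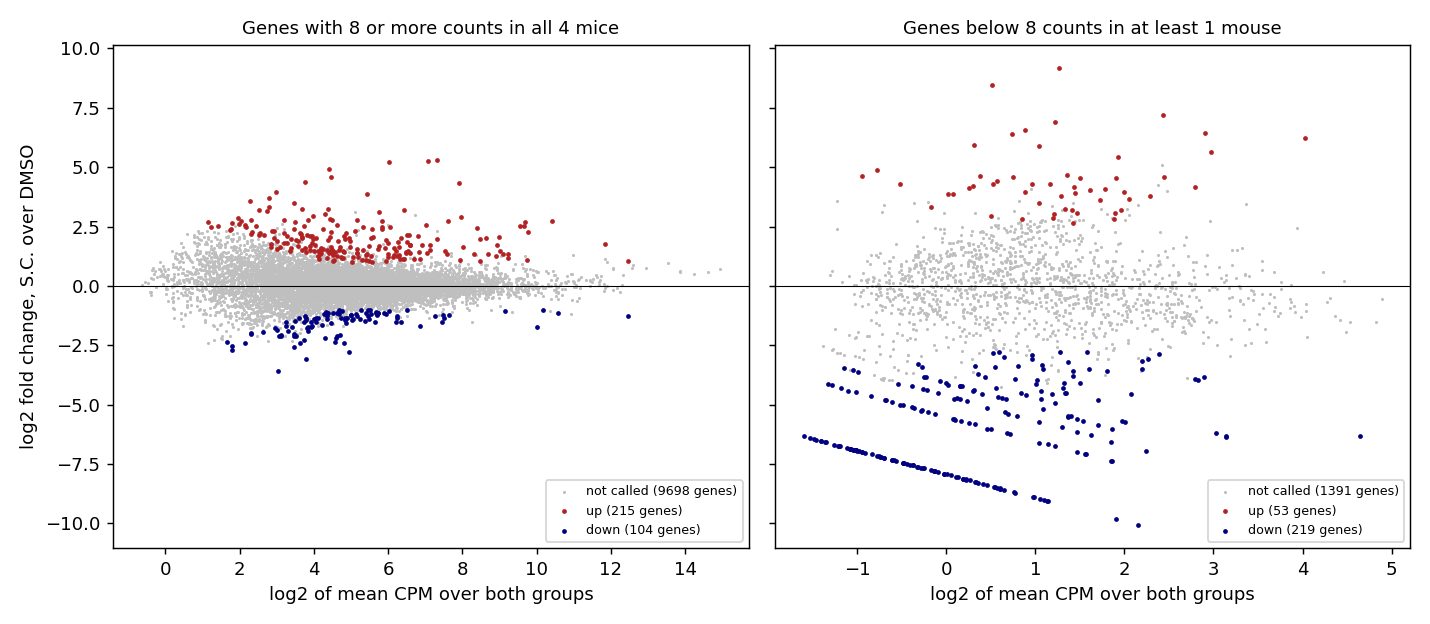
Log2 fold change of S.C. over DMSO mice (y axis) against the log2 of the mean CPM over both groups (x axis), 1 point per gene, for genes with 8 or more counts in all 4 mice (left) and genes below 8 counts in at least 1 mouse (right). The left panel holds 215 upregulated (red) and 104 downregulated (blue) genes. The right panel holds 53 and 219, and its sloping lines of blue points are genes with the same few counts in S.C. TAMs.

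Immediate early genes were upregulated more often than any other gene group examined. Of 25 listed, 22 were tested, and 18 were upregulated and 0 downregulated, with a median log2 fold change of 2.29 against 0.02 over all genes tested. Of all genes tested, 2.29% were upregulated and 2.77% downregulated. Nr4a1, an orphan nuclear receptor gene induced within minutes by many stimuli, lies on chromosome 15 from 101254269 to 101274795 (GRCm38). It had 114 and 107 counts in DMSO TAMs and 3908 and 3756 in S.C. TAMs. Its level thus rose from 6.97 ± 1.11 to 265 ± 9.50 CPM (SD, n = 2 each), a log2 fold change of 5.25 (± 0.36, where the error of a fold change is its standard error, SE, and edgeR adjusted p = 0.131). Both groups were tight, and no DMSO mouse came near an S.C. mouse.

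Fosb, an AP-1 subunit, had 28 and 15 counts in DMSO TAMs and 828 and 392 in S.C. TAMs (log2 fold change 4.90 ± 0.69 SE, edgeR adjusted p = 0.563). Junb, another AP-1 subunit, rose from 4378 and 2438 counts to 16419 and 20299 (log2 fold change 2.54 ± 0.47 SE). Fos went from 6547 and 2573 counts to 18179 and 23614. For these 3 AP-1 genes both S.C. mice lay above both DMSO mice, an order found in 16.0% of all genes tested. Jun, with 7764 and 6135 counts in DMSO TAMs and 7059 and 9130 in S.C. TAMs, overlapped between groups. The zinc finger factors Egr1 and Klf4 were also upregulated, Egr1 from 661 and 541 counts to 1648 and 4701 and Klf4 from 58 and 117 to 734 and 380.

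Dual-specificity phosphatases, which switch off MAP kinases, moved both ways. Dusp1 rose from 7745 and 3246 counts to 34584 and 34572 (log2 fold change 2.74 ± 0.55 SE). Dusp2 had 51 and 132 counts in DMSO TAMs against 1428 and 947 in S.C. TAMs, and Dusp5 had 16 and 43 against 353 and 241. These 3 were upregulated without overlap of the groups, the order also found in 16.0% of all genes tested. Dusp6, a phosphatase selective for ERK and outside the immediate early list, was downregulated, from 3341 and 5096 counts to 1749 and 891 (log2 fold change -1.54 ± 0.40 SE, edgeR adjusted p = 0.747). It was picked after its values were seen.

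Other early genes differed between the S.C. mice themselves. Nr4a2 had 28 and 27 counts in DMSO TAMs and 78 and 1098 in S.C. TAMs, a 15.4-fold gap in CPM between S.C. mice 1 and 2. Klf2 and Jund went the other way, with 2460 and 457 and 3462 and 935 counts in S.C. mice 1 and 2, against 255 and 306 and 810 and 611 in DMSO TAMs. Myc, a growth regulator on the same list, was not a DEG and was the single tested member with both S.C. mice below both DMSO mice, at 720 and 949 counts against 1267 and 1356. The number of upregulated members stayed between 13 and 16 when each mouse was left out, and was 14 with library size as the only scaling and 11 with all 3 groups in 1 fit.

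The same genes were high in 1 of the 4 I.P. mice. Summed over the list, the S.C. mice were at 8572 and 10420 CPM and I.P. mouse 1 at 10930 CPM, while the DMSO mice were at 3279 and 2175 CPM and I.P. mice 2 to 4 between 2399 and 3606 CPM. Nr4a1, for example, reached 2582 counts in I.P. mouse 1, while the other I.P. mice had 111, 89 and 261. In the numbers of the labels, I.P. mouse 1 and then the S.C. mice come first, followed by the DMSO mice and the other I.P. mice, so the high mice are also the first 3 of the series. What those numbers stand for is not stated, and their part in the rise was not tested.

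**Figure D2:**
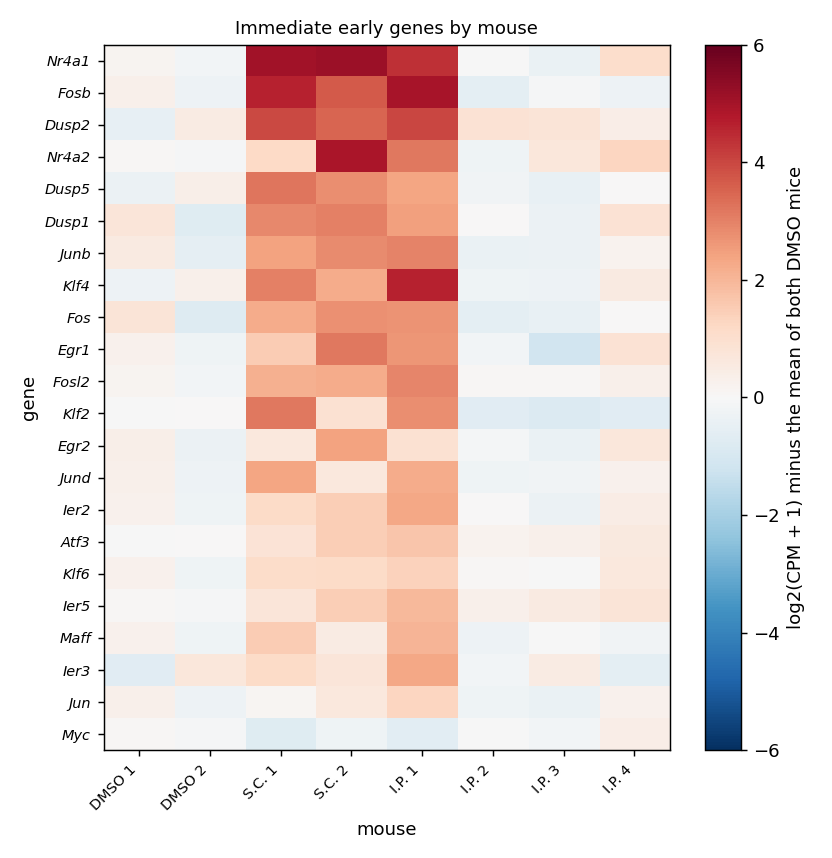
Immediate early genes (rows, 22 tested) in each of the 8 mice (columns), as log2(CPM + 1) minus the mean of both DMSO mice, ordered by the mean of the S.C. mice. Red is above and blue below the DMSO mean. Most rows are red in both S.C. mice and in I.P. mouse 1, and pale in DMSO TAMs and I.P. mice 2 to 4.

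Among cytokines, 6 of 11 tested were upregulated and 0 downregulated (median log2 fold change 1.84), beside 2.29% and 2.77% of all genes tested. The upregulated numbered 4 to 8 with each mouse left out. Il1b, encoding the fever cytokine IL-1β, rose 39.2-fold in mean CPM, from 102 and 156 counts in DMSO TAMs to 3748 and 5228 in S.C. TAMs (edgeR adjusted p = 0.151). Its partner Il1a had 858 and 473 counts against 1667 and 3528. Tnf rose from 606 and 443 counts to 1863 and 1610. The anti-inflammatory Il10 rose along with them, from 120 and 79 to 295 and 426 counts (log2 fold change 1.98 ± 0.57 SE, edgeR adjusted p = 0.747). Osm and Lif, both of the IL-6 family, were upregulated as well, Osm from 450 and 845 to 1570 and 2554 counts and Lif, in the lower set, from 7 and 9 to 93 and 29. Il6 itself was too low to be tested, with 5 and 2 counts in DMSO TAMs and 22 and 0 in S.C. TAMs, and so was Il12b, with 22 and 2 against 0 and 0. The interleukin-1 receptor antagonist Il1rn, at 7662 and 11451 counts in DMSO TAMs and 13126 and 15602 in S.C. TAMs, was not a DEG. The decoy receptor Il1r2, named after its values were seen, was upregulated, from 44 and 34 to 478 and 204 counts.

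Of 9 CXC chemokine genes 2 were upregulated, beside 2.29% of all genes tested, and both attract neutrophils. That 0 were downregulated is not read as a result, as only 2.77% of all genes were. Cxcl1 had 24 and 90 counts in DMSO TAMs and 1610 and 2060 in S.C. TAMs, and Cxcl2 had 229 and 507 against 6683 and 6500. Cxcl3, a close relative of Cxcl2, overlapped between groups, at 27 and 293 counts against 134 and 148. Cxcl10, an interferon-induced attractant of T cells, was at 1478 and 1218 counts against 1848 and 1194. Among CC chemokines 0 were downregulated, from which nothing is read either. Ccl3 and Ccl4, which attract leukocytes, were the 2 upregulated members of 11 tested, with 6402 and 3377 and 16451 and 6657 counts in S.C. mice 1 and 2 against 2051 and 3042 and 4800 and 5026 in DMSO TAMs. Ccl2, the main monocyte attractant, lay below both DMSO mice without being a DEG, at 36424 and 18637 counts against 37710 and 47151. Leaving out each mouse gave 0 to 3 upregulated and 0 to 3 downregulated CC chemokine genes, with 0 upregulated and 3 downregulated without S.C. mouse 1.

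NF-κB genes, that is its subunits, inhibitors and feedback regulators, were upregulated in 8 of 20 cases and downregulated in 0, with a median log2 fold change of 1.14. The shares over all genes tested were 2.29% and 2.77%. The 8 were Nfkbia, Nfkbid, Nfkbie and Nfkbiz, which encode IκB proteins, Tnfaip3, Tnip1 and Tnip3, which encode the deubiquitinase A20 and its partners, and the subunit Rel. Nfkbia was tight within groups, at 1485 and 1891 counts in DMSO TAMs and 8166 and 8415 in S.C. TAMs (log2 fold change 2.45 ± 0.30 SE, edgeR adjusted p = 0.533). Nfkbid rose from 163 and 193 counts to 1063 and 1731. Tnfaip3 had 967 and 619 counts against 1789 and 7804, and Rel had 181 and 136 against 266 and 1081, so that S.C. mouse 2 was well above S.C. mouse 1 for both. Of the other subunits, Rela was at 1043 and 1218 counts against 1221 and 887 and Nfkb1 at 409 and 299 against 396 and 501, with overlapping groups. Fewer NF-κB genes were upregulated with either DMSO mouse left out and more without S.C. mouse 1, as over all genes tested in those fits.

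Promoters of 4 upregulated genes from the lists above are shown because each holds the κB motif (GGG, any 2 bases, then TTTCC) on one strand or the other. Sequences are from RefSeq (GRCm38.p6), 250 bases that end at the base before the start site, 5′ to 3′ on the strand of the gene, with the κB matches in capitals. They lie at chr5:90890995-90891244 (Cxcl1, plus strand), chr5:90903649-90903898 (Cxcl2, plus), chr12:55492648-55492897 (Nfkbia, minus) and chr19:53528895-53529144 (Dusp5, plus).
Cxcl1: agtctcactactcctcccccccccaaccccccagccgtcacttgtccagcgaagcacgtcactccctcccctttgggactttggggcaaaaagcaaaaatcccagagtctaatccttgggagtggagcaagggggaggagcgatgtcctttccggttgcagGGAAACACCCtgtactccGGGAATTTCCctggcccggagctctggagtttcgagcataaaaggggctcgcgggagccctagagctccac
Cxcl2: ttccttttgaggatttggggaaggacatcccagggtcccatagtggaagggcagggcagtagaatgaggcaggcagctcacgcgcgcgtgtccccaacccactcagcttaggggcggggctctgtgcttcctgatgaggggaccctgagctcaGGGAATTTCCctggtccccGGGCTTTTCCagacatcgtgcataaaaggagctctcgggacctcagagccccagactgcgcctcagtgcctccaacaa
Nfkbia: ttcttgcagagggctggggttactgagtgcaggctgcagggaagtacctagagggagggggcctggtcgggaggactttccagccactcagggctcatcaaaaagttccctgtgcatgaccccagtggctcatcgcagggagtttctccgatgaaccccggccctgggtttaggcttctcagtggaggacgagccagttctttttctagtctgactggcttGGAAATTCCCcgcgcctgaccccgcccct
Dusp5: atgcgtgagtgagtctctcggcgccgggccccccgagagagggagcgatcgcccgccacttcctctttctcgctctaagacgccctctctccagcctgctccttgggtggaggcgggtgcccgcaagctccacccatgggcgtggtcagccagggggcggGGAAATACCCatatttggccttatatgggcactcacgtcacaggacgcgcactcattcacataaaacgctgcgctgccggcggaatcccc
Cxcl1 and Cxcl2 hold 2 matches each, and Nfkbia and Dusp5 hold 1. Most of the promoters found for upregulated genes of the upper set hold no match in these bases. Among those without are Il1b, Tnf, Nfkbid, Nfkbie, Tnip1 and Tnip3, while Rel and Tnfaip3 hold the motif but are not shown. Of 9415 tested genes with a RefSeq promoter, 1.81% hold the κB motif in these 250 bases, and 2.05% when the first 50 bases of the transcript are added. In that longer window 6.46% hold the AP-1 letters TGANTCA and 43.6% hold CCAAT, on either strand. A promoter was found for 165 of the 215 upregulated genes of the upper set, under 80%, so the check of motif shares among them is void. A match describes letters and is not a bound site.

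Receptors that sense microbes and damage were upregulated in 5 of 21 cases and downregulated in 1, beside 2.29% and 2.77% of all genes tested. Cd14, the co-receptor of TLR4 for lipopolysaccharide, rose from 3196 and 3861 counts in DMSO TAMs to 17717 and 23486 in S.C. TAMs (log2 fold change 2.70 ± 0.34 SE, edgeR adjusted p = 0.533). Nlrp3, the inflammasome sensor, rose from 60 and 124 to 323 and 377 counts. Clec7a, the β-glucan receptor Dectin-1, had 4910 and 2005 counts against 9319 and 12207. Clec4e and Tlr3 were the remaining upregulated receptors. Tlr2 was at 1977 and 1513 counts in DMSO TAMs and 1209 and 4386 in S.C. TAMs, with overlap. The scavenger receptor Marco was downregulated, from 220 and 498 to 121 and 64 counts. With either DMSO mouse left out fewer receptors were upregulated, and without S.C. mouse 1 more were, as over all genes tested. Without S.C. mouse 2, more receptors were downregulated than upregulated, as was the case over all genes tested in that fit. Nothing is therefore read about that mouse and these receptors.

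Inflammatory effectors gave 5 upregulated genes of 17, namely Hdc, Ets2, Plaur, Serpinb2 and Slpi, and 1 downregulated gene, Plau. The shares over all genes tested were 2.29% and 2.77%. Hdc, which makes histamine, rose from 12 and 12 to 165 and 98 counts. Plaur, the receptor of urokinase, rose from 5141 and 3807 to 9737 and 9721 counts, while urokinase itself, Plau, went from 1094 and 1141 to 492 and 430 (log2 fold change -1.14 ± 0.33 SE). Receptor and ligand thus moved in opposite directions, each without overlap. Of all genes tested, 16.0% had both S.C. mice above both DMSO mice and 18.4% had them below. Ptgs2, which encodes COX-2, was at 595 and 131 counts against 470 and 4757, and its large value came from S.C. mouse 2 alone. Nos2, the inducible nitric oxide synthase, overlapped at 191 and 130 counts against 148 and 231. The count of 5 upregulated effectors fell with either DMSO mouse left out and rose without S.C. mouse 1, as did the count over all genes.

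Genes for signals to T cells were upregulated in 2 of 10 cases, beside 2.29% of all genes tested. Cd83, a maturation marker of antigen-presenting cells, rose from 5081 and 2412 to 16184 and 23585 counts (log2 fold change 2.52 ± 0.54 SE), and Tnfsf9, the ligand of 4-1BB, rose from 630 and 601 to 1463 and 1672. Cd80 and Cd86 overlapped, Cd86 at 1837 and 1568 counts against 1347 and 2865. More of these signal genes were upregulated without S.C. mouse 1 and fewer without DMSO mouse 2, as over all genes tested. Of 9 MHC class II pathway genes 0 were DEGs, although 7 had both S.C. mice above both DMSO mice, an order found in 16.0% of all genes tested, and the median log2 fold change was 1.12. H2-Ab1 had 29006 and 6527 counts in DMSO TAMs and 46653 and 36920 in S.C. TAMs (log2 fold change 1.29 ± 0.74 SE). The DMSO mice differed by more between themselves than DMSO mouse 1 differed from either S.C. mouse. Without DMSO mouse 1, 7 class II genes were upregulated, without S.C. mouse 1, 2, without S.C. mouse 2, 6, and without DMSO mouse 2, 0.

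Among the 12 largest rises of the upper set, 8 are genes already described (Il1b, Nr4a1, Cxcl1, Fosb, Nr4a2, Cxcl2, Dusp2 and Dusp5). Id3, an inhibitor of basic helix-loop-helix factors, had 10 and 21 counts in DMSO TAMs and 227 and 207 in S.C. TAMs. Nol3 and Pianp were higher in S.C. mouse 1 than in S.C. mouse 2. Nol3, an inhibitor of apoptosis, had 315 and 60 counts in S.C. mice 1 and 2 against 16 and 24 in DMSO TAMs. With each mouse left out its log2 fold change was at least 1.79. Pianp had 376 and 16 counts against 16 and 15, and without S.C. mouse 1 its log2 fold change was 0.23 in place of 3.72.

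The remaining gene of the 12, Sftpc, encodes surfactant protein C of the lung alveolus. It had 23 and 16 counts in DMSO TAMs and 303 and 442 in S.C. TAMs (log2 fold change 4.38 ± 0.65 SE, edgeR adjusted p = 0.648). Other genes known from lung epithelium, picked after Sftpc was seen, were also upregulated, Sftpa1 from 8 and 7 to 69 and 145 counts, Scgb1a1 from 1 and 3 to 27 and 38, and Napsa, which macrophages can express as well, from 118 and 201 to 384 and 368. The tumors were subcutaneous. How lung transcripts came to these libraries was not tested.

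**Figure D3:**
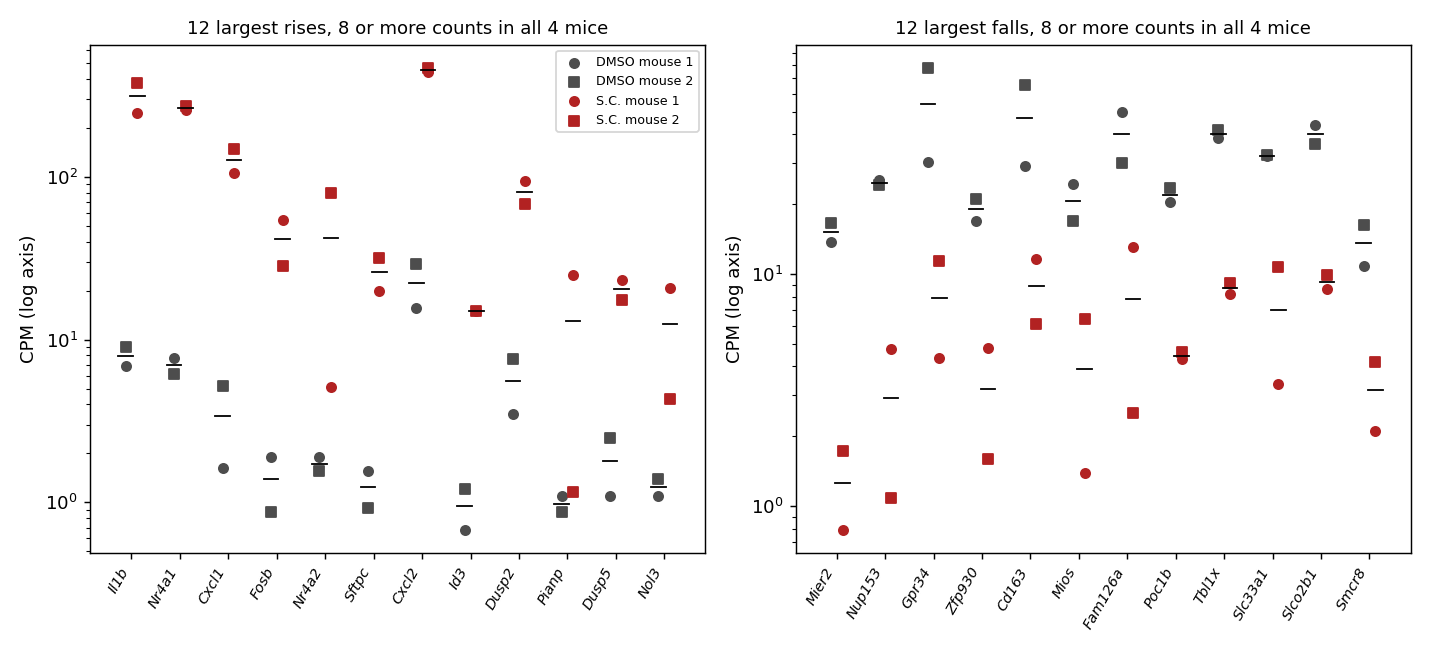
CPM (log axis) of the 12 largest rises (left) and the 12 largest falls (right) among genes with 8 or more counts in all 4 mice. Each point is 1 mouse, gray for DMSO and red for S.C., circles for mouse 1 and squares for mouse 2, and the black line is the mean of the group. S.C. mouse 2 sits close to the DMSO mice for Pianp, with 16 counts against 16 and 15.

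Among 16 resident macrophage scavenger genes tested, 6 were downregulated and 0 upregulated, beside 2.77% and 2.29% of all genes tested. Their median log2 fold change was -0.95, and 10 had both S.C. mice below both DMSO mice, an order found in 18.4% of all genes tested. Cd163, the receptor of hemoglobin-haptoglobin complexes, on chromosome 6 from 124304656 to 124330527, fell from 428 and 1125 counts in DMSO TAMs to 176 and 84 in S.C. TAMs (log2 fold change -2.41 ± 0.60 SE, edgeR adjusted p = 0.747). F13a1, the coagulation factor XIII subunit made by macrophages, fell from 15866 and 36520 to 4930 and 8956 counts. Mrc1, the mannose receptor, went from 9084 and 15716 to 4023 and 6467. Folr2, a folate receptor, had 2561 and 6733 counts against 1756 and 1716, and the ficolin gene Fcna had 957 and 1921 against 766 and 474. For all 5 of these genes DMSO mouse 2 had more counts than DMSO mouse 1, and without DMSO mouse 2 the downregulated genes of the list numbered 1.

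The sixth, Lyve1, the hyaluronan receptor, belonged to the lower set, with 244 and 1422 counts in DMSO TAMs and 18 and 0 in S.C. TAMs. Not every member fell. Igf1, a growth factor of resident macrophages, was at 5359 and 7982 counts against 6864 and 6732, Stab1 at 4866 and 8223 against 5114 and 4912, and the iron exporter Slc40a1 at 5023 and 4194 against 2994 and 5547, all 3 with overlapping groups.

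Genes of alternative activation showed no common direction, with 1 of 9 upregulated and 2 downregulated, beside 2.29% and 2.77% of all genes tested. Vegfa, the angiogenic factor, rose from 609 and 496 to 1569 and 1536 counts (log2 fold change 1.61 ± 0.35 SE). Clec10a, a galactose-type lectin, fell from 629 and 1495 to 499 and 223, and Mrc1 is the other downregulated member. Il4ra, the IL-4 receptor chain, was lower in both S.C. mice, at 2344 and 3255 counts against 5893 and 6535, and missed the 2-fold limit narrowly. Arg1 overlapped, with 7582 and 15110 counts in DMSO TAMs and 4326 and 9860 in S.C. TAMs. Tgfb1 and Chi3l3 overlapped too, and Tgfb1 had 1631 counts in S.C. mouse 1 and 116 in S.C. mouse 2. In the list of lipid-associated macrophages Gpnmb was upregulated, from 26391 and 27485 to 48968 and 113807 counts, and the cholesterol exporter Abcg1 was downregulated, from 1110 and 1207 to 552 and 356.

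The 12 largest falls of the upper set were Mier2, Nup153, Gpr34, Zfp930, Cd163, Mios, Fam126a, Poc1b, Tbl1x, Slc33a1, Slco2b1 and Smcr8. They share no single role. Tbl1x, a subunit of the NCoR corepressor, was the most even among mice, with 567 and 721 counts in DMSO TAMs and 124 and 127 in S.C. TAMs (log2 fold change -2.21 ± 0.40 SE, edgeR adjusted p = 0.747). Slco2b1, an organic anion transporter, was similar, at 643 and 632 counts against 131 and 137, as was the centriolar gene Poc1b, at 301 and 406 against 65 and 64. Mier2 fell from 203 and 287 counts to 12 and 24. Nup153, of the nuclear pore basket, had 374 and 417 counts against 72 and 15, and Mios, of the GATOR2 complex that signals amino acids to mTORC1, had 358 and 292 against 21 and 89, so these 2 were lowest in different S.C. mice. Gpr34, a lysophosphatidylserine receptor of macrophages, fell from 447 and 1342 counts to 66 and 158.

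Further downregulated genes of the upper set, named after their values were seen, include Tfrc, the transferrin receptor, which fell from 1437 and 2125 to 501 and 608 counts, Ccnd1, cyclin D1, from 1243 and 1378 to 457 and 599, and Actb, β-actin, from 79773 and 182093 to 40953 and 54035. For Actb the DMSO mice were themselves far apart.

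Most downregulated genes of the lower set, 203 of 219, were below 8 counts in both S.C. mice, as were 266 of all its 1663 genes. Of 91 tested genes with 0 counts in both mice of a group, 89 were at 0 in S.C. TAMs and 2 in DMSO TAMs. Such genes passed the filter only through the group in which they were high. That each was a DEG is therefore not read as a result. Arid3b, a DNA-binding factor, had 138 and 146 counts in DMSO TAMs and 0 and 0 in S.C. TAMs, at least 43.0-fold lower against a floor of 3 counts per library. Zfp873 had 120 and 118 counts against 0 and 0, at least 36.1-fold lower. Such floors cover counting error only. The 6 largest falls by the naming rule were Zfp433 (284 and 269 counts in DMSO TAMs, 4 and 2 in S.C. TAMs), Lyve1, 2610301B20Rik (285 and 268 against 1 and 5), Mlst8 (243 and 271 against 1 and 5), Zfp87 (161 and 273 against 19 and 6) and Pigz (181 and 237 against 4 and 20). Mlst8, a subunit of both mTOR complexes, lies on chromosome 17 from 24473551 to 24479078, and it changed by a log2 of -6.20 (SE 1.0, edgeR adjusted p = 0.721). It had between 270 and 485 counts in all 4 I.P. mice.

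Loss of well-counted genes was not confined to both S.C. mice at once. Of 9479 genes with 50 or more counts in both DMSO mice, 47 were below 8 counts in both S.C. mice, 145 only in S.C. mouse 1 and 188 only in S.C. mouse 2, which together is 4.01%. The reverse, 50 or more counts in both S.C. mice and below 8 in a DMSO mouse, applied to 20 of 8701 genes (0.230%). For I.P. mice 1 and 2 in place of the S.C. mice the share was 0.601%, and for I.P. mice 3 and 4 it was 0.211%. Between the S.C. mice, 471 genes had 50 or more counts in mouse 1 and fewer than 8 in mouse 2, and 302 the other way round. Between the DMSO mice these numbers were 4 and 6.

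**Figure D4:**
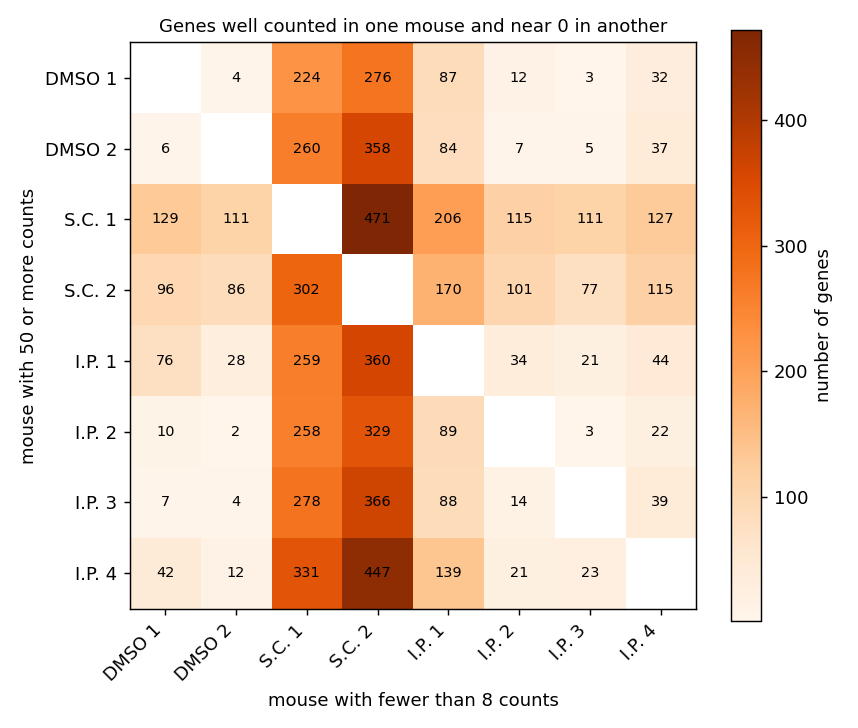
Number of genes with 50 or more counts in one mouse (rows) and fewer than 8 in another (columns), for all pairs of the 8 mice. The columns of the S.C. mice hold the high values, up to 471 for S.C. mouse 1 against S.C. mouse 2, and the DMSO mice differ from each other by 4 and 6 genes.

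The 380 lost genes were low to begin with, at a median of 6.27 CPM in DMSO TAMs against 31.4 CPM for all 9479. Their longest transcripts had a median length of 3661 bases against 3331, and a GC content of 49.7% against 50%. Zinc finger genes named Zfp made up 11.3% of the 380 and 25.5% of the 47 lost in both S.C. mice, against 2.2% of the 9479. In the whole fit, 30 of 284 Zfp genes tested were downregulated and 5 upregulated, beside 2.77% and 2.29% of all genes tested. Of the 30, 28 were among the 93 Zfp genes of the lower set, in which 13.2% of all genes were downregulated. Genes that fell this way passed the filter through their counts in DMSO TAMs, so these falls are not read as a result of their own. When only genes with 8 counts in every mouse entered the fit, 4 of 191 Zfp genes were downregulated and 6 upregulated. Of all 10020 genes in that fit, 159 were downregulated and 316 upregulated. Fewer Zfp genes were downregulated with either DMSO mouse left out and more with either S.C. mouse left out, as over all genes tested. Zfp36 encodes tristetraprolin, an RNA-binding zinc finger protein that destabilizes cytokine mRNA, and was upregulated from 2268 and 2279 to 8247 and 8061 counts.

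Upregulated genes of the lower set included transcripts of other blood cells. The 6 largest rises by the rule were Gzma, Ltf, Ngp, Gm5643, Lcn2 and H2-Q8. Ngp, Ltf and Lcn2 encode granule proteins of neutrophil precursors, and all 3 were far higher in S.C. mouse 2 than in S.C. mouse 1. They had 828, 389 and 276 counts in mouse 2 and 66, 24 and 14 in mouse 1. DMSO TAMs had 11 and 2, 5 and 0, and 4 and 10. With each mouse left out, their log2 fold changes were at least 3.33, 3.21 and 1.06. Gm5643 was higher in S.C. mouse 1 than in S.C. mouse 2, at 442 and 22 counts against 9 and 0. H2-Q8, which has near-identical relatives among the Q-region genes and whose reads may be shared with them, had 221 and 163 counts against 0 and 25. Csf3, encoding the neutrophil growth factor G-CSF and picked after its values were seen, rose from 0 and 2 to 83 and 36 counts.

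The summed neutrophil and monocyte markers were higher in both S.C. mice than in both DMSO mice. In the neutrophil list 6 of 13 tested genes were upregulated (Camp, Lcn2, Ltf, Ngp, S100a8 and S100a9), beside 2.29% of all genes tested. Its summed level was 301.9 and 554.1 CPM in S.C. TAMs against 194.4 and 210.4 CPM in DMSO TAMs. Receptors of mature neutrophils overlapped, Cxcr2 at 938 and 1684 counts in DMSO TAMs against 2536 and 897 in S.C. TAMs, and Csf3r at 818 and 432 against 431 and 1101. Of 12 monocyte markers 3 were upregulated (Ly6c2 and Nr4a1 among them), with sums of 515.7 and 639.4 CPM against 253.7 and 235.2 CPM. Ly6c2 is one of the proteins seen by the Gr-1 antibody that the sort was to exclude, and had 166 and 391 counts in S.C. TAMs against 41 and 56. The sum of the monocyte list includes Nr4a1 itself, at 263 and 274 CPM in S.C. TAMs against 7.74 and 6.15 CPM in DMSO TAMs. The neutrophil sum includes Cxcr2, with its 2536 counts in S.C. mouse 1. In S.C. mouse 1 each rise of a sum thus rests largely on a single gene. More monocyte markers were upregulated without S.C. mouse 1 and fewer without DMSO mouse 2, as over all genes tested. The part of these cells in the rises of inflammatory genes was not tested.

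Lymphocyte transcripts were few. Of 10 cytotoxic lymphocyte genes tested 2 were upregulated, beside 2.29% of all genes tested. Gzma had 222 and 95 counts in S.C. TAMs against 2 and 0, and Il2rb had 145 and 81 against 17 and 1. The list summed to 93.7 and 39.3 CPM in S.C. TAMs and to 35.8 and 2.99 CPM in DMSO TAMs, and 1 to 7 of its genes were upregulated with each mouse left out. Among B cell genes Cd79a, a chain of the B cell receptor complex, was upregulated, at 133 and 29 counts in S.C. TAMs against 5 and 2. The B cell sum nonetheless overlapped, at 67.0 and 88.6 CPM against 76.5 and 38.5 CPM, and Pax5 and Blk were at 0 counts in all 4 mice.

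Melanocyte genes, which B16F10 tumor cells express, were far higher in S.C. mouse 1 than in the other 3 of these mice. They summed to 3144 CPM in S.C. mouse 1 and 757.7 CPM in S.C. mouse 2, against 639.8 and 719.1 CPM in DMSO TAMs. Of the 11, 3 (Dct, Sox10 and Tyrp1) were upregulated, beside 2.29% of all genes tested. Dct had 21234 and 3142 counts in S.C. TAMs and 2723 and 3497 in DMSO TAMs. Without S.C. mouse 1, 0 melanocyte genes were upregulated, without S.C. mouse 2, 9 were, without either DMSO mouse, 1 was, and with library size as the only scaling, 0 were. Pianp, Nol3, Klf2 and Jund, described above, were also higher in S.C. mouse 1 than in S.C. mouse 2. A link of these genes to the melanocyte genes was not tested. Dendritic cell genes summed to 43.7 and 16.1 CPM in S.C. TAMs against 19.3 and 7.58 CPM in DMSO TAMs, and erythroid and platelet genes to 2084 and 888.4 CPM against 969.6 and 2813 CPM, with overlap and 0 DEGs in either list. Keratinocyte genes summed to at most 2.09 CPM. Fibroblast genes summed to at most 1.15 CPM in each of the 4 mice and none of the 9 was high enough to be tested, and endothelial genes, of which 0 of 4 tested were DEGs, summed to 4.42 to 6.18 CPM in DMSO TAMs and 8.28 to 12.97 CPM in S.C. TAMs.

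Few genes tied to the known targets of thiostrepton were DEGs, but few of all genes tested were (2.77% downregulated, 5.06% in either direction). At these list sizes nothing is read from the counts. Of 39 proteasome genes 0 were DEGs and the median log2 fold change was -0.12. Of 30 mitotic genes that include FOXM1 targets, 1 was downregulated, Nusap1, a spindle protein, from 640 and 918 to 244 and 264 counts, and the median was -0.41. Both S.C. mice lay below both DMSO mice for 14 of the 30, against 18.4% of all genes tested. Foxm1 itself was at 225 and 368 counts in DMSO TAMs and 202 and 98 in S.C. TAMs. With either S.C. mouse left out more mitotic genes were downregulated, and with either DMSO mouse left out fewer were, as over all genes. Of 33 DNA replication genes 0 were DEGs, with a median of -0.27, and 15 had both S.C. mice below both DMSO mice, beside the same 18.4%.

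Housekeeping groups lay near the median of all genes. There were 0 DEGs of either direction among 81 cytosolic ribosomal protein genes (median log2 fold change -0.11), 76 mitochondrial ribosomal protein genes (-0.02) and 78 respiratory chain genes (0.09). The same held for 23 genes of glycolysis and hypoxia (-0.05) and 19 of the unfolded protein response (-0.16). The MHC class I pathway also had 0 DEGs among 14 genes, but its median was higher, 0.31 against 0.02 over all genes tested. Stress and lysosomal groups gave 1 or 2 genes each, with 2.29% of all genes tested upregulated, and at such counts nothing is read about the groups. Slc7a11, the cystine importer, was the 1 upregulated gene of 20 NRF2 targets, rising from 113 and 160 to 413 and 595 counts. Gdf15 and Phgdh were the 2 upregulated of 21 genes of the integrated stress response, Gdf15 from 1903 and 2133 to 7437 and 3952 counts and Phgdh from 104 and 295 to 1078 and 379. Hspa4l was the 1 of 17 heat shock genes and Ctss the 1 of 29 lysosomal genes. In the interferon-stimulated list 2 of 25 were downregulated, beside 2.77% of all genes tested. Mx2 went from 31 and 26 to 0 and 2 counts, and Parp9 from 466 and 386 to 198 and 150.

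**Figure D5:**
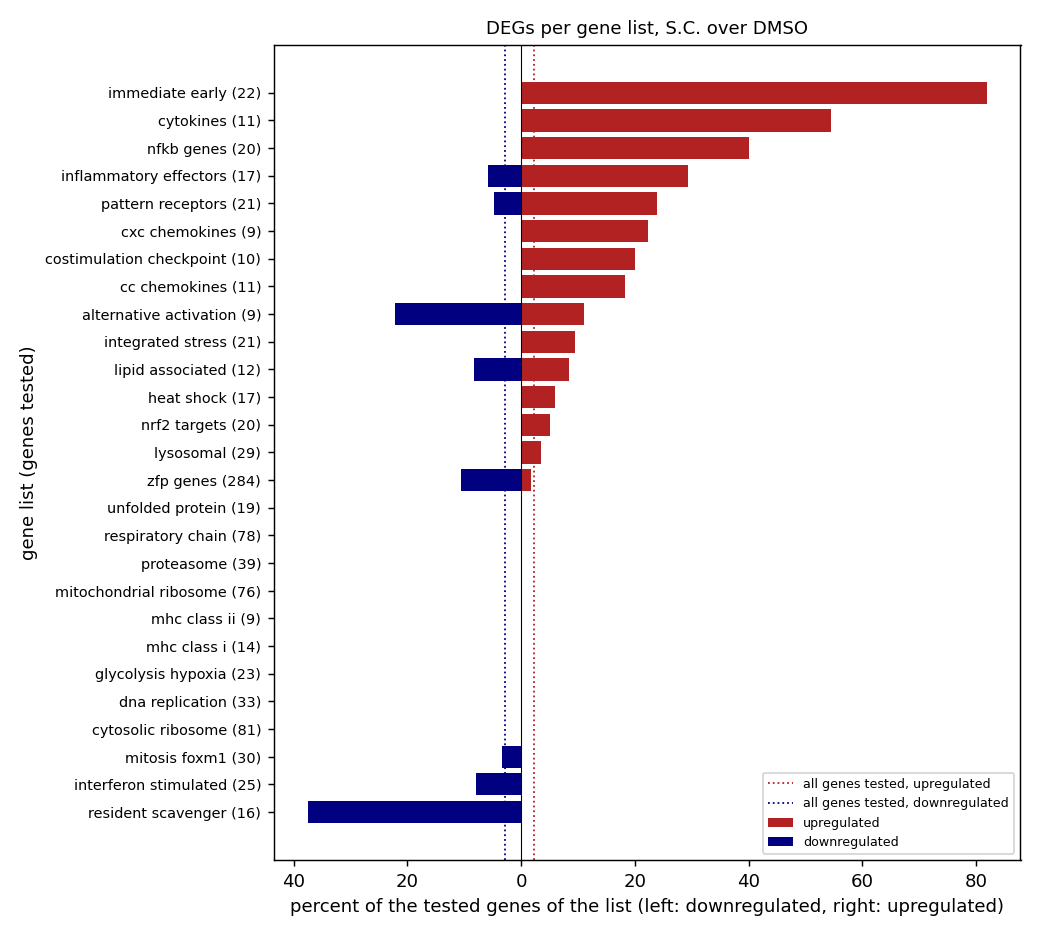
Percent of the tested genes of each functional list (cell type markers are not drawn) that were upregulated (red, to the right) or downregulated (blue, to the left) in S.C. over DMSO mice, with the number of genes tested in brackets. Dotted lines mark all genes tested, 2.29% upregulated and 2.77% downregulated. Of the lists drawn, immediate early genes, cytokines and NF-κB genes reach farthest to the right and resident scavenger genes farthest to the left.

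The S.C. mice were also fitted directly against the 4 I.P. mice, a test that uses no DMSO mouse. An unadjusted P under 0.05 was found for 8.59% of 12206 genes tested, and an adjusted p under 0.05 for 0. The genes named here were chosen for their change in the same 2 S.C. mice, so their differences from I.P. mice are given as a description only. Mier2 differed by a log2 of -3.66, Tbl1x by -2.26 and Cd163 by -3.14, with Cd163 at 740 to 2468 counts in the I.P. mice. Nr4a1 differed by 2.49 and Fosb by 1.23, and I.P. mouse 1 had 2582 and 1091 counts of them.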

How the data were processed

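RNA-seq counts of sorted TAMs were used, deposited by the authors as whole-number counts per gene symbol without normalization (23413 symbols). The methods of the study name bowtie2 2.2.3 and RSEM 1.2.15 on mm10, while the submitters' processing notes name TopHat2 and edgeR, so the counter is uncertain. Mice were grouped by their labels. In R 4.3.3 with edgeR 4.0.16, the 4 mice were filtered by filterByExpr (minimum count 10, total 15), scaled by TMM and tested two-sided by quasi-likelihood F, with Benjamini-Hochberg adjustment over all 11680 genes. The standard error is the log2 fold change over the square root of F. Genes were split after the fit at 8 counts in every mouse. CPM use TMM library sizes. Those of list sums are scaled over 8 mice. A floor of 3 counts is 0.185 to 0.212 CPM in these 4 mice.

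Members and lists were chosen with earlier results of these data known, so lists got no test. Named genes are the 12 largest rises and falls of the upper set and the 6 of the lower set (unadjusted P under 0.05, no overlap, mean of at least 5 CPM), up to 3 genes of smallest P per list, DEGs of the lists, and genes the study names. Others are said to be picked afterwards, as was the 50-count limit, and list members given as contrast were taken without a rule. Some members of the lists are not reported here. Positions are from GENCODE vM21 (GRCm38, the assembly of mm10), in which 99.2% of tested symbols were found.

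Alternatives were no filter, 1 CPM in 2 mice, 8 counts in every mouse, RLE, library size only, TMM from the upper set, the likelihood ratio test, DESeq2 1.42.0, all 3 groups in 1 fit, a split by mean count, a replicate block and leaving out each mouse. The code was tested on simulated data.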

Additional observations from a re-analysis of the deposited data

Results flagged for a closer look

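Values of the named genes in the 4 I.P. mice were flagged where 1 mouse stood apart by Dixon's criterion, which chance alone meets in about 1 of 20 groups. I.P. mouse 1 was high for 12 genes. Among inflammatory and early genes it was at 226 CPM for Il1b, 163 for Nr4a1, 152 for Cxcl1, 604 for Cxcl2, 69.0 for Fosb, 96.3 for Dusp2, 12.7 for Dusp5 and 44.9 for Id3. The other I.P. mice lay between 1.02 and 7.68 CPM for Il1b, 4.99 and 15.7 for Nr4a1, and 0.551 and 1.18 for Fosb. I.P. mouse 1 was also high for Pianp at 7.71 CPM, Ngp at 2.15, Gm5643 at 36.2 and Lcn2 at 6.45. I.P. mouse 2 was high for Gpr34 at 41.5 CPM and low for Ccl5 at 2.45. I.P. mouse 4 was high for Gzma at 0.36 CPM, where the other 3 had no count, and for 2610301B20Rik at 25.5, and low for Pigz at 8.52.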

How the results depend on the processing

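Counts of DEGs depended on settings. With no gene filter 130 genes below 8 counts were upregulated, and 10 genes had an adjusted p under 0.05. With 8 counts required in every mouse before the fit 159 were downregulated and 2 (Nr4a1 and Il1b) passed adjustment. Library size as the only scaling gave 199 downregulated genes in the upper set. Adjusted calls were 179 under the likelihood ratio test and 107 under DESeq2. All 3 groups in 1 fit gave 547 downregulated genes, 175 in the upper and 372 in the lower set, and 4 adjusted calls. Split by a mean of 8 counts, the upper part held 296 downregulated genes and the lower part 1 upregulated and 27 downregulated. In promoters without the first 50 bases of the transcript, 5.65% held AP-1 and 41.1% CCAAT letters. Apart from fewer genes, mice or bases entering, the cause was not tested.

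Deviations of same-numbered mice correlated at -0.145, and the numbers are not stated to mark a shared litter or day, so the samples share only a number. With the replicate block 19 genes passed adjustment, and the lower set held 27 upregulated and 131 downregulated genes. With the block crossed, a choice made after seeing the data, these were 2, 26 and 120.

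With each mouse left out, upregulated genes numbered 85 to 1322, downregulated 28 to 2110, and adjusted calls 0 to 2407. In the upper set they were 73 to 849 and 13 to 1311, in the lower set 12 to 546 and 15 to 980. The high ends leave 1 S.C. mouse, which is then assumed to vary like the DMSO mice. Counts per list with a mouse left out move with these totals, so no trait of a list or of a mouse is read from them. Of the 36 genes named by size of change, 0 reversed under these settings. They had been named for an unadjusted P under 0.05 and no overlap of the groups in these same mice. Their direction with a mouse left out was thus largely fixed by the naming rule, and no stability is read from it. Their smallest change with a mouse left out was a log2 of 0.23, for Pianp without S.C. mouse 1. Under other settings their calls held in 375 of 383 values, again in the mice used for naming. Depth limits genes below 8 counts, where 3 counts are the floor.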

Other observations

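Several upregulated genes outside the lists, picked after their values were seen, are known for feedback on signaling. Socs3, a suppressor of cytokine signaling, rose from 452 and 438 counts in DMSO TAMs to 1245 and 1605 in S.C. TAMs. Rgs1 and Rgs2, which shorten G-protein signals, rose from 5254 and 5523 to 11949 and 13163 and from 1023 and 1002 to 2868 and 4411. Nfil3, a basic leucine zipper factor, rose from 505 and 520 to 1738 and 2021. All 4 genes had both S.C. mice above both DMSO mice, an order found in 16.0% of all genes tested. They were picked for their rise, so nothing is read from this order.

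Other upregulated genes, picked the same way, have varied roles. Tsc22d1 went from 79 and 105 to 561 and 564 counts (log2 fold change 2.76 ± 0.43 SE, edgeR adjusted p = 0.662), Fbxo32 from 192 and 190 to 1133 and 848, Sgk1 from 2694 and 2355 to 6942 and 11383, and the clock gene Per1 from 15 and 42 to 177 and 72. Itgax, which encodes CD11c, rose from 342 and 229 to 1069 and 1711 counts and was at 325 to 538 in the I.P. mice. Mfge8, which bridges apoptotic cells to phagocytes, rose from 153 and 217 to 990 and 677. Ccrl2, an atypical chemoattractant receptor, rose from 1192 and 638 to 5706 and 7001.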
